A study of Arabidopsis thaliana with 6 samples.

Results

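A set of 6 probe sets was taken from the arrays because the platform annotation gives each 1 gene with a symbol of the form CML, CPK, CBL, CIPK or CAM and a number, CML38 being left out. They stand for 6 of 13356 genes with a probe set of their own, namely CML23 (AT1G66400), CML30 (AT2G15680), CML37 (AT5G42380), CML41 (AT3G50770), CML42 (AT4G20780) and CML43 (AT5G44460). All 6 are calmodulin-like genes. Among probe sets with 1 annotated gene, 0 symbols of this form stood for calmodulins, calcium-dependent protein kinases (CPK), calcineurin B-like sensors (CBL) or the kinases these recruit (CIPK). The 503 probe sets with several genes were not searched. The set thus holds calcium sensors alone, and those families are not analysed here.

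Calcium ions enter the cytosol of a plant cell within seconds of touch, cold, wounding, pathogen contact or a hormone, and are pumped out again. Calmodulin-like proteins bind the ion through EF-hands, a loop held between helices, change shape and then act on partner proteins, since they carry no kinase domain of their own. Many of their genes are themselves switched on quickly by stress, which makes their transcripts a readout of recent stimulation as well as of development.

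Transcript levels had been measured in whole seedlings of the bzr1-1D and det2 mutants of Arabidopsis thaliana, both in the Columbia-0 background. The dominant bzr1-1D allele stabilises BZR1, a transcription factor of the brassinosteroid pathway, and det2 is short of brassinosteroid because a reductase of its synthesis is defective. Seedlings of both had grown for 5 days in shaken liquid medium with 1.5% sucrose under constant light at 22 °C, about 15000 seeds to a flask, and all had then been mock-treated with 15 µl of 80% ethanol for 3 hours. There were 3 arrays of either genotype, and an experiment, of which 3 were done in separate weeks, gave 1 array of each, so that its arrays form a pair. Each value is thus a pool of many seedlings, and in whole seedlings fewer cells of a type and less RNA per cell cannot be told apart.

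The 6 arrays had median intensities between 213 and 221 over 22746 probe sets and between 19.6% and 21.5% of probe sets below an intensity of 50. Each array had been scaled to a target intensity of 500, which by itself brings the arrays close in brightness. The GAPDH control, whose 3′ to 5′ ratio reflects how complete the labelled RNA is, gave 0.757 and 0.800 in experiment 1 (bzr1-1D and det2), and between 0.461 and 0.496 on the other 4 arrays. The actin ratio lay between 3.13 and 5.46 on 5 arrays and was 8.18 in bzr1-1D of experiment 3. Of the markers chosen for whole seedlings, 0 of 11 leaf markers and 2 of 11 root markers had a named probe set. The expansins of root hairs, EXPA7 and EXPA18, had lower values in bzr1-1D than in det2 in each experiment, as 15.5% of all probe sets did. Their adjusted p for genotype was 0.726 and 0.743 (limma). Their summed intensity was 131 to 333 in bzr1-1D and 420 to 549 in det2. EXPA7 read 44.2 in bzr1-1D and 257.5 in det2 of experiment 2, whereas EXPA18 read 196.2 and 201.3 in experiment 3. The share of root hair cells in any result was not tested. The 1 named pollen marker of 10, SHT, stayed between 8.3 and 42.6, and the seed storage marker PAP85, 1 of 6, between 43.1 and 127.5. AUR1, the 1 named marker of dividing cells of 5, was at 512, 449 and 701 in bzr1-1D of experiments 1, 2 and 3. In det2 it was at 361, 503 and 475.

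Of the 6 genes, 5 had a mean log2 difference above 0, bzr1-1D minus det2, where 47.6% of all probe sets did. Differences are of log2(intensity + 50), and the median of the 6 was 0.46, against -0.01 over all probe sets. By experiment the median of the 6 was 0.23, 0.80 and 0.34. Over all probe sets the SD of the difference was 0.35, 0.59 and 0.47 in experiments 1, 2 and 3. Experiment 2 was thus the widest for the arrays as a whole. The median over all probe sets was 0.005, -0.017 and -0.029 in experiments 1, 2 and 3. Whether the 6 genes stand apart from other probe sets in experiment 2 was not tested. No gene passed the test: limma with experiment as the block and p-values adjusted after Benjamini and Hochberg called 0 of the 6 and 0 of 22746 probe sets (0%) at an adjusted p under 0.05. At an unadjusted p under 0.05, limma gave 2 of the 6, both higher in bzr1-1D, and 1556 of all probe sets (6.84%), 2.74% of them all being higher and 4.1% lower. Of the 6, 4 genes kept 1 direction in all 3 experiments, as 28% of all probe sets did. CML37, CML41 and CML42 were higher in bzr1-1D each time (12.4% of all probe sets) and CML30 was lower each time (15.5%).

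**Figure D1:**
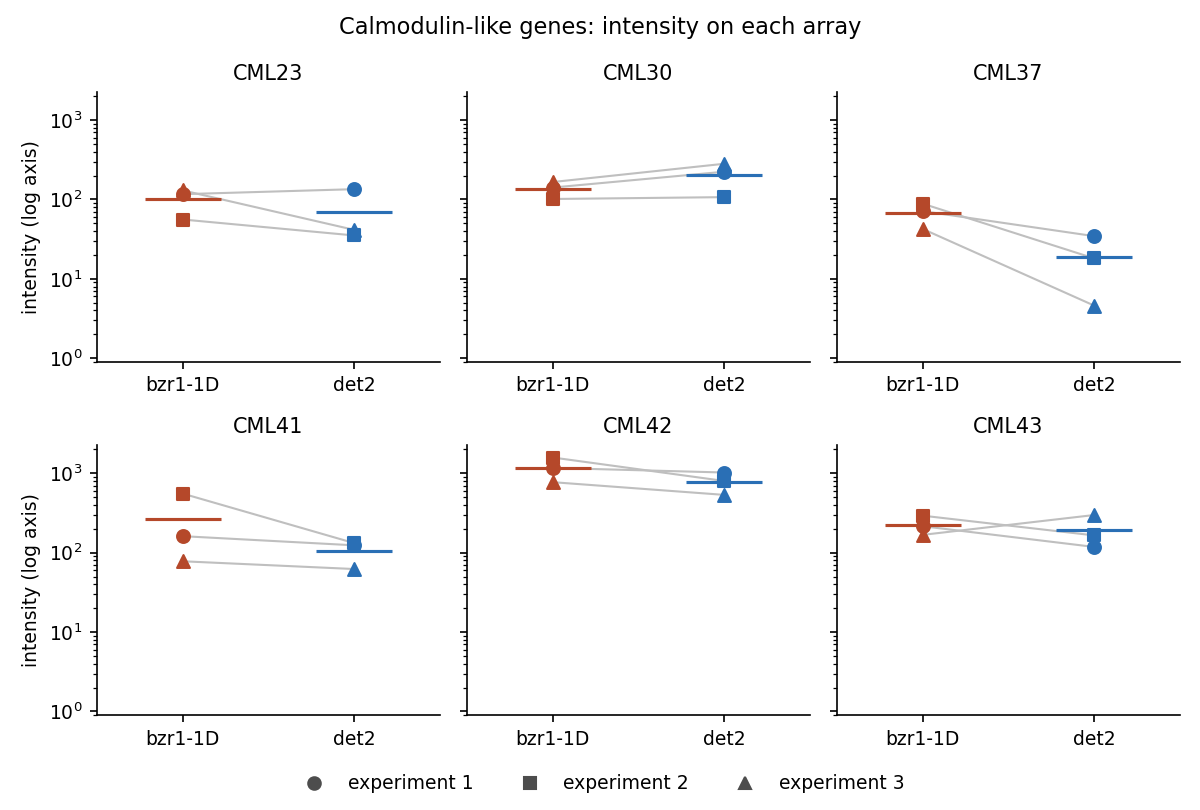
Intensity of the 6 calmodulin-like genes on each array, on a log axis. Points are arrays, shaped by experiment and joined within an experiment, and bars are arithmetic means of 3 arrays. The genotypes separate without overlap in CML37 alone, and levels of different genes are not comparable because each has its own probes.

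CML37 is a sensor that takes part in drought and jasmonate responses to feeding insects. Its intensity in bzr1-1D was 71.2, 88.3 and 42.4 in experiments 1, 2 and 3, and in det2 it was 34.5, 18.1 and 4.6. Every bzr1-1D array lay above every det2 array, which held for 9.32% of all probe sets and for this gene alone of the 6. The bzr1-1D mean was 67.3 ± 23.2 (SD, n = 3) and the det2 mean 19.1 ± 15.0 (SD, n = 3). The log2 difference was 0.77 ± 0.15 (SE), with a 95% interval from 0.36 to 1.17 (limma, unadjusted p = 0.00498, adjusted p = 0.700). The gene is dim, with 4 of 6 arrays below 50, so that the size of the difference rests on the offset. An offset of 16 gave 1.301, and no offset gave 2.18.

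CML42, which acts in jasmonate defence and in the branching of leaf hairs, was bright on all arrays. The bzr1-1D arrays read 1171, 1584 and 774 in experiments 1, 2 and 3, and the det2 arrays 1025, 803 and 536. The bzr1-1D array was the higher of the pair each time, but the groups overlapped, since bzr1-1D of experiment 3 lay below det2 of experiments 1 and 2. The log2 difference was 0.54 ± 0.19 (SE), with a 95% interval from 0.05 to 1.03 (limma, unadjusted p = 0.0379, adjusted p = 0.712). It was 0.34 without experiment 2. The 95% interval took in 0 with an offset of 16 (-0.0017 to 1.12) and with no offset (-0.08 to 1.22). It also did with no replicate block (-0.23 to 1.31) and with a random replicate block (-0.11 to 1.18). The same held without experiment 2 (-0.16 to 0.84) and without experiment 3 (-0.24 to 1.36).

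CML41 is found at plasmodesmata, the channels between cells, and promotes their closure by callose in immunity. In bzr1-1D its intensity was 162, 555 and 78.0, and in det2 it was 124, 132 and 62.3. A single array, bzr1-1D of experiment 2, stood far above the other 5. The log2 difference of 0.73 ± 0.35 (SE) had a 95% interval from -0.18 to 1.65 (limma, adjusted p = 0.732). It came to 0.24 without experiment 2, having been 1.73 within that experiment and 0.28 and 0.19 in the others.

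CML30, a sensor directed to mitochondria, was the gene of the set that was lower in bzr1-1D. The bzr1-1D arrays read 141, 101 and 166, and the det2 arrays 224, 107 and 282. The gap was wide in experiments 1 and 3 and slight in experiment 2, where both arrays were low. The log2 difference was -0.40 ± 0.17 (SE), with a 95% interval from -0.83 to 0.04 (limma, adjusted p = 0.730).

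CML43, a gene known from root tips and from responses to bacteria, and CML23, which acts with its close relative CML24 on flowering time and nitric oxide, had no common direction. CML43 was at 216, 293 and 168 in bzr1-1D but at 118, 165 and 299 in det2, so that the order of the genotypes turned in experiment 3. Its log2 differences were 0.66, 0.67 and -0.68, with a mean of 0.22 ± 0.32 (SE) and a 95% interval from -0.61 to 1.05 (limma, adjusted p = 0.907). CML23 was at 117, 55.9 and 130.0 in bzr1-1D but at 135, 35.2 and 41.4 in det2. The bzr1-1D value was the lower of the pair in experiment 1 and the higher in the others, with a mean log2 difference of 0.38 ± 0.25 (SE) and a 95% interval from -0.27 to 1.03 (limma, adjusted p = 0.790). With no offset the difference of CML23, which has 2 of 6 arrays below 50, was 0.70. With 1 array per genotype and experiment, whether a genotype difference itself varies between experiments was not tested.

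**Figure D2:**
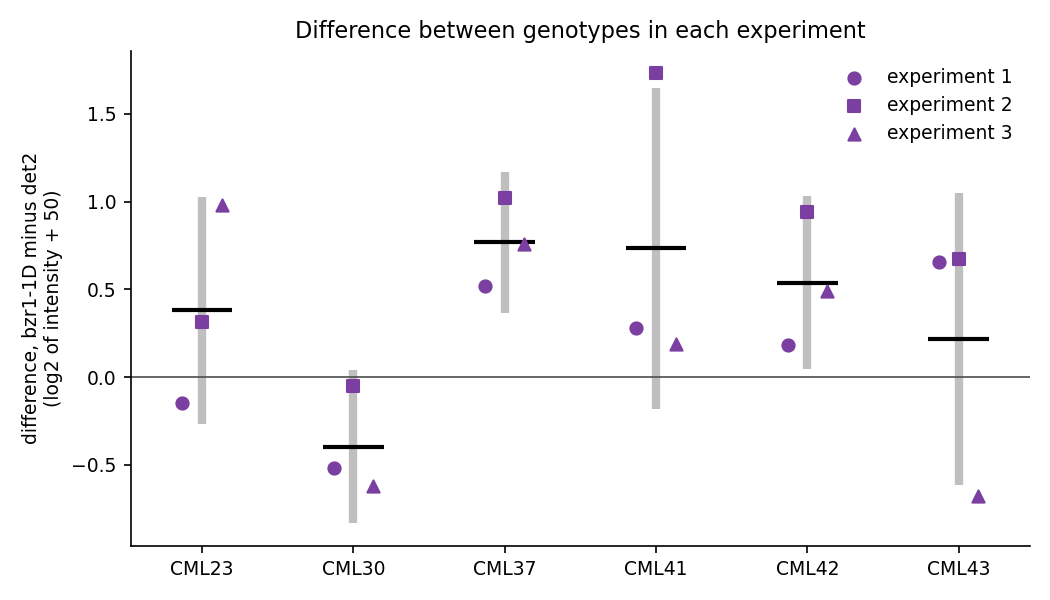
Genotype difference of the 6 genes, bzr1-1D minus det2, in log2(intensity + 50). Points are single experiments, black bars the limma mean and grey bars its 95% interval. The interval lies above 0 for CML37 and CML42 before any adjustment for the number of probe sets. That of CML42 takes in 0 with an offset of 16 or none, and with no replicate block or a random one. It also does without experiment 2 or experiment 3.

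Experiment took the largest share of the spread of 4 of the 6 genes, as it also did in the medians over all probe sets. How many probe sets had this order was not counted. Experiment has more levels than genotype, which by itself tends to give it a larger share. Experiment took 67.3% of the sum of squares over the 6 arrays for CML30, 59.3% for CML23, 58.2% for CML41 and 56.1% for CML42, where the median of all probe sets was 46.0%. For CML37 genotype took 70.2%, against a median of 12.1% over all probe sets. For CML43 most lay in neither, with a remainder of 70.1% and a median remainder of 28.6% over all probe sets. These shares describe 6 arrays and carry no test.

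**Figure D3:**
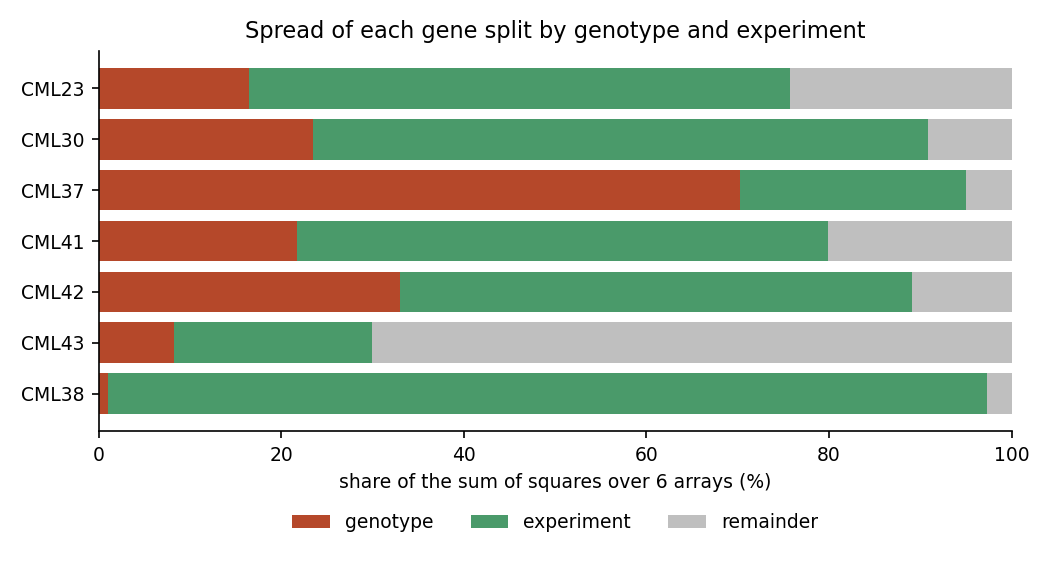
Share of each gene's sum of squares over 6 arrays (log2(intensity + 50)) that falls to genotype, to experiment and to the remainder. Genotype takes 70.2% in CML37, and experiment takes 96.3% in CML38, which is not of the set and is shown for comparison.

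Between the experiments, a moderated F test in limma with genotype as a covariate called 0 of the 6 genes and 0 of all probe sets (0%) at an adjusted p under 0.05. At an unadjusted p under 0.05 it gave 2 of the 6, CML30 and CML42, and 2524 of all probe sets (11.1%). Experiment 3 was then set against experiments 1 and 2, a contrast taken up because earlier results had shown experiment 3 to stand apart. Here too 0 of the 6 and 0 of all probe sets (0%) had an adjusted p under 0.05 in limma. The 0 over all probe sets became 26 of 15501 when a mean intensity of at least 100 was asked for, and 5 of 22746 with no genotype term, with 0 of the 6 genes among them in either case, CML23 and CML37 being too dim to enter the former. In the fit described first, 4 of the 6 had an unadjusted p under 0.05, as did 8.81% of all probe sets. Of the 4, 3 were lower in experiment 3 (4.18% of all probe sets) and 1 was higher (4.64%). This count depended on the model: with no genotype term limma gave 0 of the 6, beside 1960 of 22746 probe sets. The median over the 6 was -0.24, with 4 below 0, where 48.3% of all probe sets were below 0 and their median was 0.01.

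CML42 had the smallest p of the set in that contrast. The means over the pair of arrays in experiments 1, 2 and 3 were 1098, 1193 and 655, and both arrays of experiment 3 lay below the other 4, as in 7.17% of all probe sets. The log2 difference was -0.74 ± 0.20 (SE), with a 95% interval from -1.27 to -0.22 (limma, adjusted p = 0.526), and it was alike in the genotypes, -0.78 in bzr1-1D and -0.71 in det2. CML41 also had both arrays of experiment 3 at the bottom, with a log2 difference of -1.07 ± 0.37 (SE) (limma, adjusted p = 0.554), which was -1.48 in bzr1-1D and -0.67 in det2. CML37 was lowest in experiment 3 in either genotype, at 42.4 in bzr1-1D and 4.6 in det2, with a log2 difference of -0.48 ± 0.16 (SE) (limma, adjusted p = 0.554). Since it is dim, this size too rests on the offset, and it was -0.86 when 16 was added and -1.67 when nothing was.

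CML30 ran the other way, with pair means of 183, 104 and 224 in experiments 1, 2 and 3. Its log2 difference for experiment 3 was 0.51 ± 0.18 (SE), with 0.34 in bzr1-1D and 0.68 in det2 (limma, adjusted p = 0.554). Set pair against pair, limma at an unadjusted p under 0.05 gave 2 of the 6 for experiment 2 against 1, CML23 and CML30 (11.3% of all probe sets), 2 for experiment 3 against 1, CML37 and CML42 (13.5%), and 3 for experiment 3 against 2, CML30, CML41 and CML42 (5.85%), and 0 of the 6 at an adjusted p under 0.05 (0%). The low point of CML30 was experiment 2, which lay 0.57 below experiment 1 and 0.80 below experiment 3 on the log2 scale. CML23 and CML43 had opposite signs in the genotypes: experiment 3 minus the others was 0.44 in bzr1-1D and -0.46 in det2 for CML23, and -0.47 and 0.87 for CML43. Their means of -0.01 ± 0.26 (SE) and 0.20 ± 0.34 (SE) average over these (limma, adjusted p = 0.998 and 0.873).

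CML38, left out by the rule, is a relative of CML37 that belongs to the core response to low oxygen. The bzr1-1D arrays read 192, 219 and 1379, and the det2 arrays 215, 101 and 1321. Both arrays of experiment 3 lay above the other 4, and the log2 difference was 2.63 ± 0.24 (SE), with a 95% interval from 1.99 to 3.27 (limma, unadjusted p = 0.000172, adjusted p = 0.145). None of the 6 genes had both arrays of experiment 3 above the other 4, which 8.45% of all probe sets had. HRA1 (AT3G10040), a regulator induced by low oxygen, was likewise highest in experiment 3, at 93.8, 111 and 2900.2 in bzr1-1D and at 44.7, 77.3 and 3534 in det2. Only HRA1 and the pyruvate decarboxylase PDC2 of 26 low-oxygen symbols had a named probe set, and PDC2 had a log2 difference of 1.23 ± 0.43 (SE) for experiment 3. The part of the low-oxygen response in the values of the 6 genes was not tested. AT1G76640, the neighbour of CML38 on chromosome 1 and listed as CML39, was dim, with 5 of 6 arrays below 50 and 82.6 in det2 of experiment 3.

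**Figure D4:**
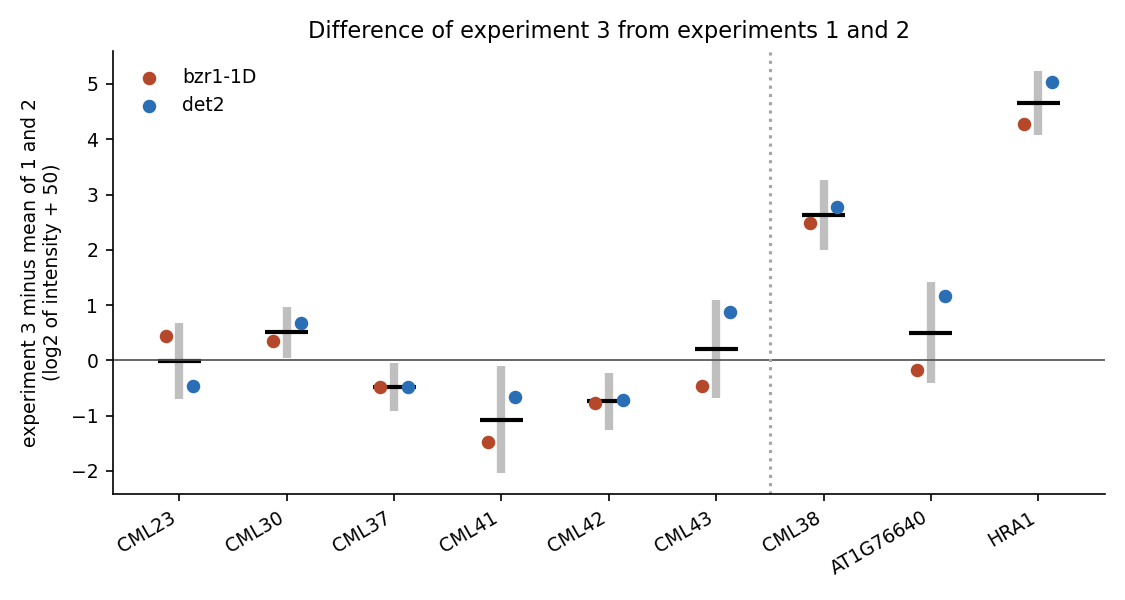
Experiment 3 minus the mean of experiments 1 and 2 (log2(intensity + 50)) for the 6 genes, left of the dotted line, and for CML38, AT1G76640 and HRA1. Points are the single genotypes, black bars the limma mean and grey bars its 95% interval. CML38 and HRA1 lie at 2.63 and 4.65, whereas the 6 genes lie between -1.07 and 0.51.

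Set out by array, 3 of the genes shared their extremes. CML37, CML41 and CML42 were each highest in bzr1-1D of experiment 2 and lowest in det2 of experiment 3, as 3.93% of all probe sets were. CML30 was the mirror image, highest in det2 of experiment 3 and lowest in bzr1-1D of experiment 2, as 4.98% were. This order was seen first and counted afterwards, so it is a description.

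Genes that answer quickly to touch, cold and wounding were examined beside them. Of 32 such symbols 3 had a named probe set, all 3 with a mean log2 difference above 0 and 0 past the test (limma). STZ, a zinc finger repressor of stress responses, was at 826, 1407 and 1195 in bzr1-1D and at 1240, 331 and 671 in det2. WRKY53, a regulator of leaf ageing and defence, was at 295, 928 and 245 in bzr1-1D and at 571, 141 and 189 in det2. Both were highest in bzr1-1D of experiment 2, the array on which CML37, CML41 and CML42 were highest, and both were lowest in det2 of experiment 2. The share of all probe sets with these extremes was not counted, and experiment 2 had the widest differences over all probe sets. The log2 differences between genotypes in experiments 1, 2 and 3 were -0.56, 1.94 and 0.79 for STZ and -0.85, 2.36 and 0.31 for WRKY53. The remaining gene, COR15A of the cold response, was dim and did not share this order: it was highest in bzr1-1D of experiment 1, at 64.4, and lowest in det2 of experiment 2, at 19.6, with log2 differences of 0.17, 0.44 and -0.19. Whether the 6 genes follow them was not tested.

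**Figure D5:**
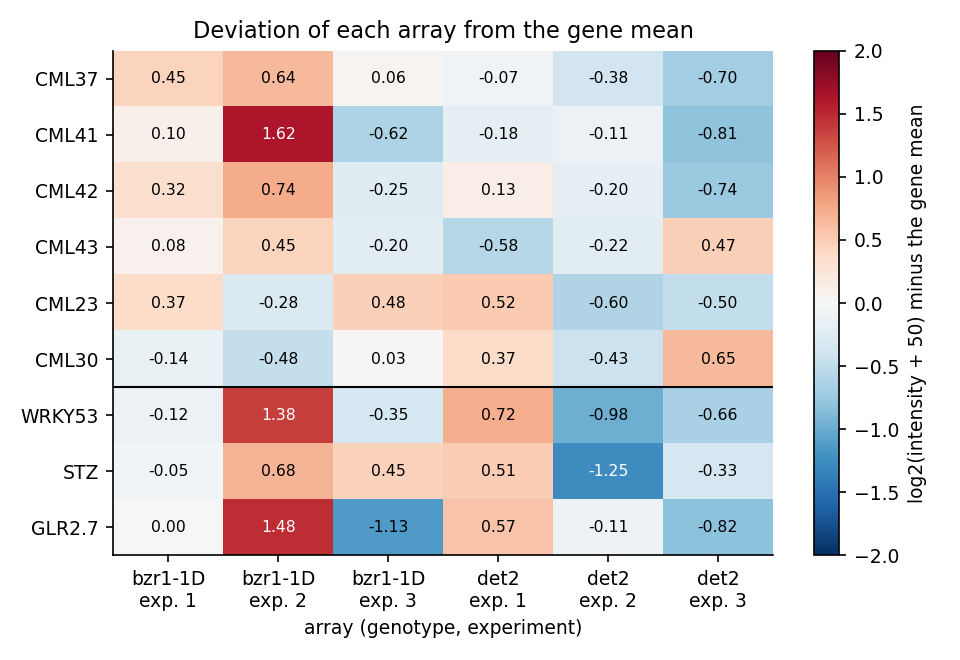
Deviation of each array from the gene's mean over 6 arrays (log2(intensity + 50)), for the 6 genes above the line and for WRKY53, STZ and the glutamate receptor gene GLR2.7 below it. Bright red marks bzr1-1D of experiment 2, at 1.62 for CML41, 1.38 for WRKY53 and 1.48 for GLR2.7. The genes below the line come from lists whose other genes are not drawn and do not all peak on that array. COR15A, for example, was highest in bzr1-1D of experiment 1.

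Genes upstream and downstream of the sensors were measured in part. Of 47 symbols of calcium channels 8 had a named probe set, all of the glutamate receptor family, which conducts calcium into the cell. Of these, 3 were higher and 5 lower in bzr1-1D, with a median of -0.04, and limma called 0. GLR3.5 was at 189, 126 and 144 in bzr1-1D and at 211, 233 and 222 in det2, lower in bzr1-1D on every array, with a log2 difference of -0.43 ± 0.16 (SE) (limma, unadjusted p = 0.0466, adjusted p = 0.725). GLR2.7 was at 137, 474 and 36.0 in bzr1-1D and at 229, 124 and 56.3 in det2. Like CML41 it was highest in bzr1-1D of experiment 2, and both arrays of experiment 3 were the lowest, with a log2 difference of -1.46 ± 0.49 (SE) for experiment 3 (limma, adjusted p = 0.554). Of the other channel genes, ATGLR1.2, GLR1.4 and GLR2.8 were also highest in bzr1-1D of experiment 2. The share of all probe sets highest on that array was not counted. GLR2.9, GLR3.3, GLR3.5 and GLR3.6 were each highest on a det2 array. For GLR3.6 the gap was slight, 225.4 in det2 of experiment 3 against 224.0 in bzr1-1D of experiment 2. GLR2.9 and GLR2.8 were dim, with 6 and 3 of 6 arrays below 50.

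Of 31 pumps and exchangers 1 was named, the sodium and calcium exchanger NCL (AT1G53210). It was at 3664, 5835 and 4835 in bzr1-1D and at 4732, 6508 and 5903 in det2, the lower of the pair in bzr1-1D each time, with a log2 difference of -0.27 ± 0.13 (SE) (limma, adjusted p = 0.732). Of 34 calmodulin binding factors IQD16 and IQD31 were named, scaffold proteins of the cell cortex and microtubules, with log2 differences of -0.29 ± 0.19 (SE) and 0.06 ± 0.12 (SE). Of 29 targets of the sensor kinases 0 were named.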

How the data were processed

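Total RNA of whole seedlings was hybridised as 15 µg of biotinylated cRNA to 1-colour Affymetrix ATH1 arrays. The deposited values are probe set intensities on a linear scale, which the authors obtained with GCOS 1.1 at a target intensity of 500, per the labels; the later division by the wild type in GeneSpring 7.0 that the labels name is not in them, and arrays of the wild type are not analysed here.

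The values were analysed as log2(intensity + 50) with no other scaling and no filter, 64 control probe sets were left out, and 22746 were tested with limma 3.58.1 in R 4.3.3, two-sided. Fits were of genotype with experiment as block, and of experiment with genotype as covariate. Same-numbered arrays are paired because the labels place them in the same experiment; deviations from the genotype means correlated within an experiment at 0.387, 0.08 and 0.373, and between different experiments -0.371 to 0.107. The pairing in experiment 2 rests on the labels. P-values for genotype set the difference against its own variation between the 3 experiments. Those between experiments rest on how alike the change was in both genotypes, since an experiment has no further replicate. The residual degrees of freedom are 2, to which limma added a prior of 2.67 in the genotype fit, and the number of arrays limits the precision.

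Of the probe sets 13513 had 1 annotated gene, 503 several and 8730 none. The TAIR10.1 gene table served for names and neighbours. All 6 members were matched and none is on a probe set ending in _s_at or _x_at. The members, lists and tests were chosen with earlier results of these data known. By rule the text names members that passed a test and, per family, the brightest and those with the widest gaps between genotypes or experiments. This took in all 6. For other lists the rule was up to 4 genes with the smallest p, but all 8 channel genes are named. The computations were tested on simulated data. Figures were drawn with matplotlib 3.10.9.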

Additional observations from a re-analysis of the deposited data

How the results depend on the processing

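Alternatives were other offsets, quantile normalization, median centring, a mean intensity of at least 100, no _s_at or _x_at probe sets, robust eBayes, eBayes with trend, array weights, fits without the block or the genotype term, and leaving out experiments or arrays. The count of the 6 genes past an adjusted p of 0.05 was 0 in all of these, for genotype, between experiments and for experiment 3, and between 0 and 0 with an experiment or array left out. At a mean intensity of at least 100 CML23 and CML37 are not tested. Over all probe sets the count for genotype was 1 both for a fit with no replicate block and for a random replicate block, and between experiments it was 4 with no genotype term. For experiment 3 against 1 and 2 it was 26 with dim probe sets left out (mean intensity under 100) and 5 with no genotype term, and for experiment 3 against 1 it was 8 and 5; for experiment 3 against 2 it was 3 with no genotype term. The cause was not tested. At an unadjusted p under 0.05 for genotype, limma gave 2 of the 6 genes with the block. It gave 1 with no replicate block and 1 with a random replicate block, beside 1122 and 1649 of 22746 probe sets. CML42 had an unadjusted p of 0.141 and 0.0882 in these fits (limma). The median genotype difference of the 6 lay between 0.29 and 0.68 without single experiments. Their median for experiment 3 was -0.41 with no offset, -0.39 with an offset of 16, -0.22 after quantile normalization, -0.27 after median centring and -0.27 at a mean intensity of at least 100, and ran from -0.48 to -0.18 without single arrays. With no offset the genotype difference was 2.18 for CML37 and 0.70 for CML23, and the difference of experiment 3 was -1.67 for CML37. For genotype, CML43 ran from -0.0098 to 0.66, changing sign without experiment 1 (-0.0031) and without experiment 2 (-0.0098), and CML23 lay between 0.08 and 0.65 without single experiments. For experiment 3, CML23 ran from -0.46 to 0.44 and CML43 from -0.47 to 0.87 when an array was left out, CML23 changing sign without any of the det2 arrays and CML43 without det2 of experiment 3. The cause was not tested. Dim signal limits CML37 and CML23, with 4 and 2 of 6 arrays below 50.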

Other observations

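A pair of calcium-related genes outside the lists, picked by their names in the gene table after the values were seen, showed no common direction. CaS, the calcium-sensing protein of the chloroplast thylakoid, was at 4027, 2937 and 4022 in bzr1-1D and at 3511, 3835 and 2704 in det2 in experiments 1, 2 and 3, a log2 difference of 0.13 ± 0.22 (SE) (limma, adjusted p = 0.922). AT4G35987, which encodes the methyltransferase that modifies calmodulin, was at 159, 116 and 90.2 in bzr1-1D and at 142, 146 and 157 in det2. It was higher in bzr1-1D in experiment 1 and lower in the others, with a log2 difference of -0.23 ± 0.18 (SE) (limma, adjusted p = 0.814).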
